A study of Rattus norvegicus with 68 samples.

Results

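The comparison described here sets the highest concentration of an inhalation study against the next one below it at the longest exposure: nasal epithelial cells of 4 rats that breathed 15 ppm formaldehyde for 13 weeks against those of 4 rats that breathed 10 ppm for the same time. It uses 8 of the 68 arrays of the series, and every probe set with a single gene symbol entered it, which gave 14217 genes. All animals were male F344/CrlBR rats, 8 weeks old when exposure began, and in both groups the whole body was exposed for daily sessions of 6 h, 5 days each week, so that the groups differ in concentration alone as far as the labels say. Other arrays of the series cover 0, 0.7, 2 and 6 ppm at 13 weeks and further groups at 5 days and 4 weeks, 17 groups of 4 animals in all. Each array holds RNA from 1 animal. Proteases released the cells from nasal tissue of level II, without the maxilloturbinate and without olfactory epithelium, which were dissected away, and the submitters describe the yield as mostly transitional epithelium with some respiratory epithelium. Bulk RNA from such a yield cannot tell fewer cells of a type from less RNA per cell.

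Formaldehyde is a reactive gas that is taken up by the lining of the upper airways, where it binds proteins and links them to DNA. The respiratory epithelium of the rat nose holds basal cells, ciliated cells and secretory cells. Long irritation can replace the nasal lining by a layered squamous epithelium whose outer cells build a cornified envelope. That envelope is made from involucrin, loricrin and small proline-rich proteins crosslinked by transglutaminases. High concentrations are also known for cell death and regenerative division in this tissue and, after long exposure, for nasal squamous cell carcinoma in rats.

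Between 10 and 15 ppm after 13 weeks, 1793 genes differed at an adjusted p under 0.05 (limma, a moderated linear model fitted to all arrays, with Benjamini-Hochberg adjustment over all genes). They are 12.6% of the genes tested. Of them 1215 (8.55% of all genes) rose and 578 (4.07%) fell, and a gene is termed called below where it passed this threshold. A change of at least 1.5-fold was reached by 438 of them (3.08% of all genes), 271 risen (1.91%) and 167 fallen (1.17%), and at least 2-fold change by 63 and 10. Among all genes, the values of the 4 arrays at 15 ppm did not overlap those at 10 ppm for 2504 genes (17.6%), 1716 higher (12.1%) and 788 lower (5.54%). Of the called genes 992 rose and 368 fell without overlap, and 433 overlapped. The median change of all genes was 0.01 on the log2 scale. Single animals weighed on the number of calls: 833 genes were called without animal 378 of the 15 ppm group, and at 10 ppm 1051 without animal 341 and 1194 without animal 348. Array medians, the actin 3'-to-5' signal difference (1.71 ± 0.09 at 15 ppm and 1.74 ± 0.08 at 10 ppm, SD, n = 4) and the RNA integrity number (8.90 ± 0.36, n = 3, with no value for animal 377, and 8.45 ± 0.10, n = 4) are the technical values at hand, and 1476 genes were called with RNA integrity as a covariate, 1625 over the arrays that have an integrity value and 1992 with the actin difference as a covariate.

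**Figure D1:**
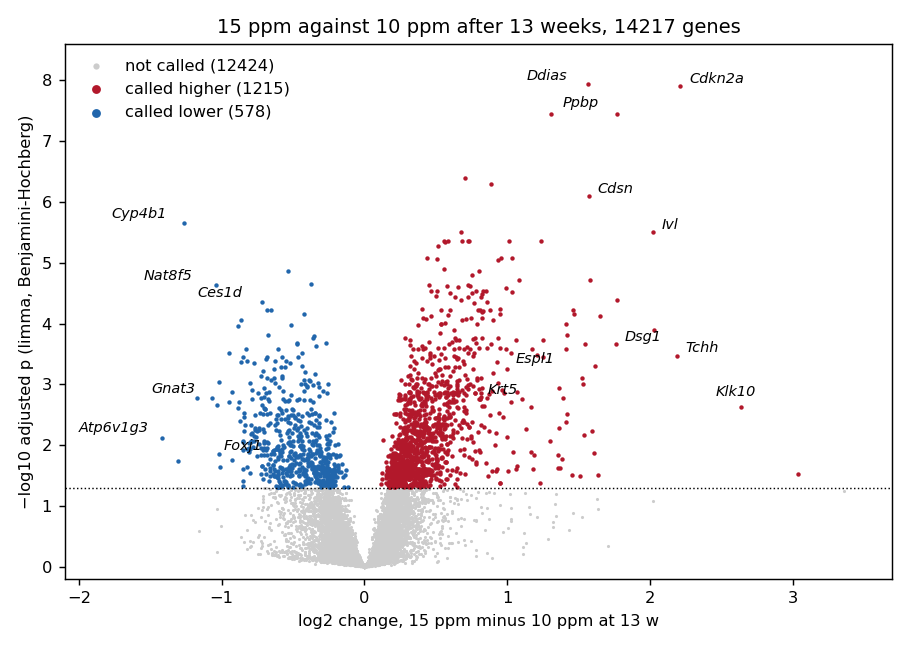
Each point is 1 of 14217 genes, placed by its log2 change from 10 to 15 ppm at 13 weeks and by the −log10 of its adjusted p, with the dotted line at an adjusted p of 0.05. The 1215 risen genes reach further from 0 than the 578 fallen ones. The enamel gene Ambn, whose groups overlapped, stands at a change of 3.04, Klk10 and Cdkn2a at 2.64 and 2.21, and Atp6v1g3 at −1.42.

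Squamous genes had the largest median change of the 40 gene lists examined. Of 36 measured genes of the cornified envelope and squamous cells, 14 rose, 0 fell, and the median change was 0.83. The mean level of the list was 10.20, 10.21, 10.12 and 10.71 in animals 341, 346, 348 and 349 at 10 ppm and 10.89, 11.24, 11.34 and 11.29 in animals 375, 377, 378 and 379 at 15 ppm, the order in which array values are given throughout. The groups did not overlap, and animal 349 stood above its group and animal 375 below its own. Leaving out 1 animal gave between 11 and 18 called members.

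Klk10, a kallikrein-related serine protease, had the largest change among the called genes whose groups did not overlap. Its log2 signal was 6.72, 6.71, 6.90 and 7.97 at 10 ppm and 9.52, 9.95, 9.87 and 9.52 at 15 ppm, a rise of 2.64 ± 0.61 (SE), or 6.24-fold (adjusted p = 0.0024). Animal 349 was again the highest at 10 ppm. Tchh, which encodes trichohyalin, a protein that crosslinks keratin filaments, read 6.66, 6.22, 6.42 and 7.36 against 8.65, 9.04, 9.11 and 8.60, a rise of 2.19 ± 0.42. Endou, an endonuclease that cuts at uridines, rose by 2.03 ± 0.36.

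Ivl, the gene of involucrin, the scaffold on which the envelope is built, read 5.41, 4.96, 5.88 and 5.95 at 10 ppm and 6.80, 7.10, 8.73 and 7.64 at 15 ppm. All 4 arrays at 10 ppm were below 6, where the signal is too low for a fold, and all at 15 ppm were above it (change 2.02 ± 0.28, adjusted p = 3.1e-06). Cdsn, the gene of corneodesmosin, which holds cornified cells together, had 6.85, 6.83, 7.21 and 7.65 at 10 ppm and 8.18, 8.90, 9.02 and 8.73 at 15 ppm. It rose 2.97-fold (change 1.57 ± 0.21, adjusted p = 8.0e-07), with no overlap of the groups. Dsg1, a desmosomal cadherin of the upper squamous layers, rose 3.39-fold (6.76 ± 0.50 against 8.52 ± 0.35, SD, n = 4). Asprv1, a retroviral-like aspartic protease that processes filaggrin, rose 3.01-fold and Aloxe3, a lipoxygenase of the lipid barrier, 2.76-fold. Lce3b of the late cornified envelope family rose 3.14-fold.

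Sprr1b, a small proline-rich envelope precursor, read 11.12, 11.79, 10.81 and 12.01 at 10 ppm and 12.72, 13.05, 13.01 and 13.09 at 15 ppm. It rose 2.90-fold here (change 1.54 ± 0.40, adjusted p = 0.0069), and the 10 ppm group itself stood 4.66 above the 0 ppm group on the log2 scale. The transglutaminase Tgm1, named after its values were seen, rose 2.46-fold. Not every member passed: Krt10, a keratin of suprabasal squamous cells, read 11.60, 11.12, 12.19 and 12.53 against 12.98, 13.36, 13.61 and 13.34 with an adjusted p of 0.13, and Sprr3 had a change of 1.32 ± 0.65 with an adjusted p of 0.18, although neither gene's groups overlapped. These 2 genes, too, were chosen after their values were seen.

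Basal cells carry the keratins Krt5 and Krt14 and attach the epithelium through hemidesmosomes. Of 22 measured genes of basal cells, hemidesmosomes and wound integrins, 7 rose and 1 fell, with a median change of 0.23. Krt5 read 12.20, 12.43, 12.33 and 12.39 at 10 ppm and 12.93, 13.07, 13.21 and 13.19 at 15 ppm, a rise of 1.69-fold (adjusted p = 5.6e-04). The values within each group lay within a narrow band and the groups were well apart. Krt14 rose 1.45-fold and Col17a1, the transmembrane collagen of the hemidesmosome, 1.79-fold, and the laminin chain Lama3 and the hyaluronan receptor Cd44 rose as well (0.66 ± 0.12 and 0.63 ± 0.12). Dst, a linker of keratin to the hemidesmosome that is named here after its values were seen, fell by 0.40 on the log2 scale on the probe set that stood for it, while 2 of its other probe sets changed by 0.54 and 0.43 and the mean of its probe sets by 0.09, so that its direction depends on the probe set.

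Among 26 genes of claudins, tight junctions and desmosomes 7 rose and 2 fell. The desmosomal plaque genes Pkp1 (11.51 ± 0.26 against 12.34 ± 0.12), Pkp3, Jup and Dsp rose by 0.83 ± 0.18, 0.70 ± 0.14, 0.65 ± 0.14 and 0.70 ± 0.17. A dimmer probe set of Dsp had a change of −0.24 ± 0.12 (adjusted p = 0.24). Cldn8, which encodes a claudin of tight junctions, read 11.98, 11.78, 12.27 and 11.84 at 10 ppm and 11.25, 11.41, 11.39 and 11.01 at 15 ppm. It was 1.63-fold lower at 15 ppm (adjusted p = 0.0012), with no overlap.

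Promoter stretches of 3 genes are shown because 14 squamous genes rose and AP-1, the dimer of Fos and Jun proteins, is a known regulator of squamous genes. Loricrin is a member of the squamous list, while Ecm1 and Cysrt1 are not. They come from RefSeq (GRCr8), run 5′ to 3′ on the gene's strand, and have the AP-1 letters TGACTCA or their complement TGAGTCA in capitals. Loricrin encodes the main protein of the cornified envelope and Ecm1 a skin matrix protein. All 3, with Cysrt1, were chosen after their values and letters were seen.
Loricrin, chr2:180256573-180256652, minus strand: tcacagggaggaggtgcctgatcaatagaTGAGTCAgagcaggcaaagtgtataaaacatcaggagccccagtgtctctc
Ecm1, chr2:185981637-185981716, minus strand: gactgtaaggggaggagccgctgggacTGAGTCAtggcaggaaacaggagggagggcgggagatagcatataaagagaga
Cysrt1, chr3:28453550-28453629, minus strand: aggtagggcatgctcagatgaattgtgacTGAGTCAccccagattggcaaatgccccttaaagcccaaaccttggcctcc
The capitals begin 51, 83 and 151 bases before the annotated start. Ecm1 rose by 0.97 ± 0.23 and Cysrt1 by 1.25 ± 0.23. Loricrin read 7.56, 7.93, 8.50 and 9.59 against 8.65, 10.44, 10.71 and 10.34, overlapped, and had an adjusted p of 0.031, which lay between 0.0581 and 0.141 without any of animals 341, 346, 348, 377, 378 or 379. A window of 300 bases around the start was at hand for 11733 of the 14217 genes, and 3.8% of these windows held the AP-1 letters on either strand. They were found in 4.46% of the windows of risen genes and 3.48% of those of fallen genes. Among called genes with at least 1.5-fold change, the shares were 7.76% (17 of 219) for risen and 4.86% (7 of 144) for fallen genes. In the squamous list, members called or not, 6 of the 27 windows held them. The risen members Ivl, Sprr1b, Tgm1 and Krt5 had windows without these letters. Sprr1a, named after its values were seen, had a window with them and a change of 0.42 ± 0.38 (adjusted p = 0.57 in a limma fit of each probe set). AP-1 letters followed by GC also match the core of the antioxidant response element (TGACNNNGC), which was counted separately. A match is a description of letters and not of binding.

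Of 41 measured mitosis genes, 32 rose and 1 fell, with a median change of 0.57. The mean level of the list was 8.31, 8.56, 8.41 and 8.62 at 10 ppm and 8.84, 9.02, 9.17 and 9.02 at 15 ppm, with no overlap, against 7.30 ± 0.13 at 0 ppm. Leaving out 1 animal gave 27 to 34 called members.

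Aurka, a kinase of spindle poles, read 6.93, 7.45, 7.06 and 7.17 at 10 ppm and 7.91, 7.91, 7.88 and 7.92 at 15 ppm, a rise of 1.68-fold (adjusted p = 3.1e-05). The 15 ppm animals had nearly the same value, while the 10 ppm animals spread more widely, and the groups did not overlap. Espl1, the gene of separase, which cuts the link between sister chromatids, read 6.31, 6.54, 6.34 and 6.82 against 7.20, 7.55, 7.57 and 7.68, a rise of 1.99-fold. Hmmr, a spindle and hyaluronan-binding protein, rose 1.78-fold, the kinetochore gene Spc25 by 0.76 ± 0.14 and Cdca3, which promotes entry into mitosis, by 0.78 ± 0.14. Mki67, the gene of the proliferation marker Ki-67, read 8.85, 8.86, 9.12 and 9.30 against 9.59, 9.80, 10.07 and 9.80 and rose by 0.78 ± 0.23 (adjusted p = 0.019), but this call was lost without animal 341 (0.0704), 346 (0.0544) or 378 (0.0909). The fallen member was the single probe set annotated as Aurkb, a kinase of the chromosomal passenger complex, at 11.36, 10.90, 11.30 and 10.97 against 10.54, 10.65, 10.51 and 10.53. Its call was lost without animal 341 (0.0695) or 348 (0.0542). It is named after its values were seen, it moved against the other called members, and whether this probe set measures Aurkb was not checked.

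The promoters of mitosis genes are known for NF-Y sites (CCAAT, complement ATTGG) and for the cell cycle homology region, or CHR (TTTGAA, complement TTCAAA), and 3 stretches are shown because 32 of these genes rose. The letters of both motifs are in capitals, no capitals overlap, and the stretches are from RefSeq (GRCr8), 5′ to 3′ on the gene's strand.
Cdk1, chr20:19265203-19265292, plus strand: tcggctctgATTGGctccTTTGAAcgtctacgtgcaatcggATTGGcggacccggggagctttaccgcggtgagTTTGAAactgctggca
Top2a, chr10:84473094-84473163, minus strand: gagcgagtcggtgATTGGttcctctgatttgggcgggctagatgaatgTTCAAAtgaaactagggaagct
Hmmr, chr10:25665246-25665305, minus strand: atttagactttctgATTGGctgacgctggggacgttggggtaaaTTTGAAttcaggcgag
Cdk1, the kinase that starts mitosis, rose by 0.51 ± 0.13 and Top2a, a DNA topoisomerase, by 0.57 ± 0.15, though the call of Top2a was lost without animal 341 (adjusted p = 0.0576). The CHR letters were in 24 of the 36 mitosis windows (66.7%) and in 12.3% of all windows, and the CCAAT letters in 28 of 36 (77.8%) against 37.3% of all. Over all risen genes these shares were 15.7% and 39.0%, and over all fallen genes 8.61% and 35.7%. Cdk1 and Top2a were chosen after their values were seen.

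Of 36 S phase and replication genes, 22 rose and 0 fell, with a median change of 0.41. This count was 14 without animal 341 and 11 without animal 378. Pole2, a subunit of DNA polymerase epsilon, read 7.24, 7.11, 7.43 and 7.23 against 7.86, 7.86, 7.67 and 7.86, a rise of 0.56 ± 0.11, and the replication clamp loader genes Rfc5 and Rfc4 rose by 0.36 ± 0.08 and 0.47 ± 0.10. Chaf1a, a histone chaperone at the replication fork, rose by 0.60 ± 0.13. Pcna, the sliding clamp, had a change of 0.13 ± 0.07 and was not called (adjusted p = 0.23).

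Genes of crosslink repair and its checkpoints, which handle the DNA damage that formaldehyde is known for, rose in 8 of 31 cases and fell in 0, with a median change of 0.15. The count was 4 without animal 341 and 5 without animal 378. Fancd2, the central protein of the Fanconi pathway, read 6.91, 6.90, 7.11 and 7.16 against 7.38, 7.59, 7.86 and 7.81, a rise of 0.64 ± 0.12 (adjusted p = 3.5e-04), and Topbp1, which activates the ATR checkpoint kinase, rose by 0.46 ± 0.09.

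Among 20 p53 target genes, 9 rose and 0 fell, with a median change of 0.21, and leaving out 1 animal gave 6 to 9 called members. Ccng1, which encodes cyclin G1, read 10.91, 11.33, 11.02 and 11.26 against 11.62, 11.64, 11.97 and 12.02 and rose 1.61-fold (adjusted p = 4.4e-06). Cdkn1a, the gene of the cell cycle inhibitor p21, read 10.99, 11.10, 10.67 and 11.05 against 11.09, 11.63, 11.65 and 11.61, where animal 375 lay beside the 10 ppm animals, and rose by 0.54 ± 0.14. A dimmer probe set of Cdkn1a had a change of 0.36 ± 0.23 (adjusted p = 0.37 in a limma fit of each probe set). Plk2, a p53-induced kinase, rose by 0.71 ± 0.15.

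Cdkn2a, the gene of the cell cycle inhibitor p16 and of Arf, read 6.95, 8.26, 6.81 and 8.48 at 10 ppm and 9.11, 9.32, 10.39 and 10.53 at 15 ppm. The groups did not overlap, and within each group the animals formed a lower and a higher pair. It rose 4.63-fold (change 2.21 ± 0.24, adjusted p = 1.3e-08). The group means at 0 and 6 ppm were 4.76 ± 0.12 and 5.32 ± 0.29, and the 10 ppm group, which is shared with the comparison at hand, stood 2.30 above the 6 ppm group. Ddias, which encodes an apoptosis suppressor induced by DNA damage, read 5.44, 5.81, 5.58 and 6.10 against 7.05, 7.13, 7.61 and 7.40 and had the smallest adjusted p of all genes (1.1e-08).

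**Figure D2:**
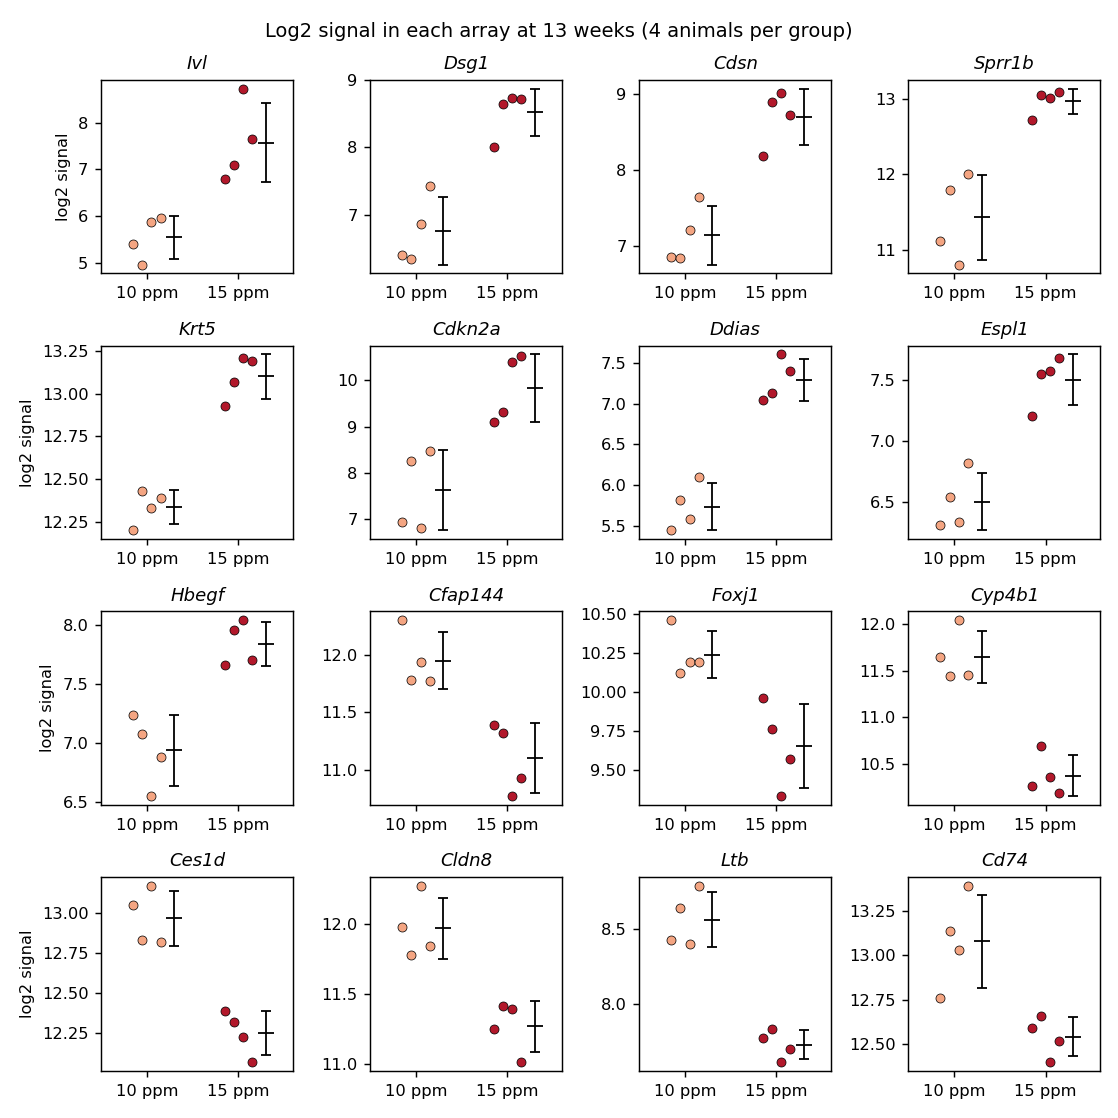
Log2 signal of 16 genes in each animal at 10 ppm (light points) and 15 ppm (dark points) after 13 weeks, with the mean and SD of 4 animals beside them. Of the genes chosen for the figure, squamous, cell cycle and growth factor genes lie higher at 15 ppm (Cdsn 7.13 ± 0.38 against 8.71 ± 0.37). Cfap144, Foxj1, Cyp4b1, Ces1d, Cldn8, Ltb and Cd74 lie lower (Cyp4b1 11.64 ± 0.28 against 10.38 ± 0.22).

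Growth factor and immediate early genes changed in smaller numbers, beside 8.55% of all genes called higher and 4.07% called lower. Of 27 genes of EGF receptor ligands and feedback, 4 rose and 1 fell (3 calls in all without animal 341 or without animal 378). Hbegf, a ligand of the EGF receptor, read 7.24, 7.08, 6.55 and 6.88 at 10 ppm and 7.66, 7.96, 8.04 and 7.70 at 15 ppm, a rise of 1.86-fold (adjusted p = 6.4e-04). The groups did not overlap. The ligand Tgfa rose by 0.33 ± 0.09 and Dusp5, a phosphatase that acts on ERK, by 0.61 ± 0.15. Areg, the ligand amphiregulin, read 10.33, 10.64, 9.38 and 10.07 against 10.16, 10.77, 10.86 and 10.80, was not called (0.54 ± 0.32, adjusted p = 0.29), and stood at 4.89 above the 0 ppm group already at 10 ppm.

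The next counts stand beside the same shares, 8.55% of all genes called higher and 4.07% called lower. Of 32 AP-1 and immediate early genes 4 rose and 0 fell, a count of 2 without animal 348 and of 9 without animal 375. Junb read 10.15, 9.91, 9.60 and 10.15 against 10.66, 10.55, 10.39 and 10.38 and rose by 0.54 ± 0.14 (adjusted p = 0.0046). Among 33 genes of activin, follistatin and TGF-beta, 3 rose and 1 fell (2 in all without animal 341, 348, 378 or 379). Fst, the gene of follistatin, which binds and blocks activin, read 7.72, 8.65, 7.52 and 8.06 against 8.62, 9.38, 9.10 and 9.27, a rise of 2.15-fold with animal 346 just above animal 375. Bmp7, a bone morphogenetic protein, rose by 0.41 ± 0.08. Proteases, matrix and wound repair genes were called in 1 of 38 cases higher (Cd44) and 1 lower (the tissue transglutaminase Tgm2, fell by 0.71 on the log2 scale).

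All 27 measured genes of ciliated cells had a negative change, 15 were called lower and 0 higher, and the median change was −0.61. The mean level of the list was 9.54, 9.19, 9.40 and 9.04 at 10 ppm and 9.02, 8.82, 8.47 and 8.62 at 15 ppm, against 9.44 ± 0.22 at 0 ppm. The groups did not overlap, but animals 349 and 375 stood beside each other at the boundary. The count of calls rested on single animals: it was 4 without animal 341, 7 without animal 348, 2 without animal 378 and 6 without animal 379. In the comparison of 15 ppm with 0 ppm, which shares the 15 ppm arrays and called 20.6% of all genes lower, 24 of the 27 were lower.

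Cfap144, which encodes a cilium-associated protein, read 12.30, 11.78, 11.94 and 11.77 at 10 ppm and 11.39, 11.32, 10.77 and 10.93 at 15 ppm, 1.80-fold lower (adjusted p = 0.0034). The groups did not overlap, and the call held without any single animal. Foxj1, the transcription factor that directs the building of motile cilia, read 10.46, 10.12, 10.19 and 10.19 against 9.96, 9.76, 9.33 and 9.57 and fell by 0.58 on the log2 scale. Its call was lost without animal 341 (0.0751) or 378 (0.107). The ciliary microtubule gene Tekt1 and the dynein light chain gene Dynlrb2 fell by 0.76 and 0.70, with calls lost without animal 378 (0.0648 and 0.0626).

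**Figure D3:**
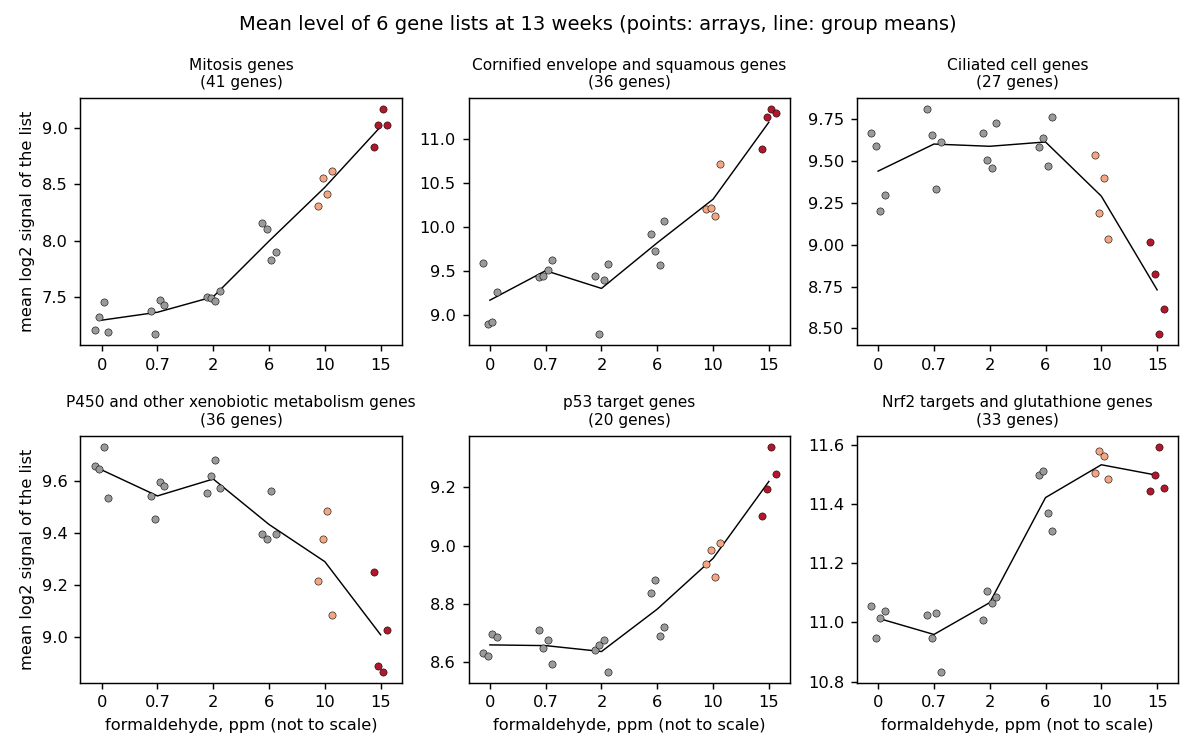
Mean log2 signal of 6 gene lists in each of the 24 arrays at 13 weeks, by concentration, with lines through the group means. From 10 to 15 ppm the mitosis and squamous lists had higher group means (8.48 to 9.01 and 10.31 to 11.19) and the ciliated list a lower one (9.29 to 8.73), while the list of Nrf2 targets stood at 11.53 and 11.50.

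Of 26 secretory and mucin genes, 3 fell and 0 rose, beside 4.07% of all genes called lower and 8.55% called higher. Sftpd, the collectin surfactant protein D, read 12.08, 11.79, 11.95 and 11.60 against 11.37, 11.47, 11.13 and 11.11, without overlap, and fell by 0.58 on the log2 scale. The gel-forming mucins Muc5ac and Muc5b had changes of 0.07 ± 0.58 and −0.33 ± 0.34 and were not called, and neither was the club cell secretoglobin Scgb1a1 (0.03 ± 0.15). Without animal 378, 1 secretory gene was called. Of 19 nasal gland secretions 2 fell, among them the secretoglobin Scgb1c1 (by 0.47 on the log2 scale), and 1 was called without any of animals 341, 346, 348, 378 or 379.

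Among 36 P450 and other genes of foreign compound metabolism, 9 fell and 0 rose, with a median change of −0.27 (5 called without animal 378 or without animal 379). Cyp4b1, a P450 of airway epithelium, read 11.65, 11.44, 12.04 and 11.45 at 10 ppm and 10.26, 10.69, 10.36 and 10.19 at 15 ppm. It was 2.41-fold lower (adjusted p = 2.3e-06), with no overlap, and the 0 ppm group stood at 12.81 ± 0.17. The carboxylesterases Ces1d and Ces1e, which hydrolyse esters, fell by 0.72 and 0.77, Ces1d reading 13.05, 12.83, 13.17 and 12.82 against 12.39, 12.32, 12.23 and 12.07. Pon1, the lactonase paraoxonase, fell by 1.02 and Akr1c15, an aldo-keto reductase, by 0.85. Cyp2a3, a P450 of the olfactory and respiratory lining, fell by 0.63.

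Of 20 glutathione transferases 5 fell, a count of 2 without animal 341, 1 without animal 348, 2 without animal 378 and 3 without animal 379. Gsta3 read 11.56, 11.53, 11.88 and 11.42 against 11.06, 10.87, 10.94 and 10.78 and was 1.61-fold lower (adjusted p = 3.5e-04). Of 22 enzymes that oxidise formaldehyde and other aldehydes, 3 fell and 1 rose. Aldh1a1, a retinal and aldehyde dehydrogenase, read 14.34, 14.15, 14.49 and 14.17 against 13.92, 13.93, 14.00 and 13.87 and fell by 0.36. Adh5, the glutathione-dependent formaldehyde dehydrogenase, had a change of −0.13 ± 0.11 (adjusted p = 0.51) and the mitochondrial Aldh2 one of −0.33 ± 0.12 (adjusted p = 0.057), and neither was called.

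Among 33 Nrf2 targets and glutathione genes, which answer oxidative and electrophilic stress, 1 rose (the glutathione synthetase Gss, by 0.39 ± 0.08) and 0 fell; 2 were called without animal 346 or 349 and 3 without animal 375. Hmox1, heme oxygenase, read 11.81, 11.91, 11.34 and 11.60 against 11.11, 11.86, 11.72 and 11.58 (−0.10 ± 0.22), and Nqo1, a quinone reductase, changed by −0.15 ± 0.08. Neither was called, and at 10 ppm they stood 2.26 and 0.67 above the 0 ppm group.

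A further set of fallen genes belongs to ion transport. Of 25 airway ion channels and aquaporins, 7 fell and 0 rose. Foxi1, the transcription factor of ionocytes, which are rare acid- and salt-handling cells, read 8.38, 8.23, 8.66 and 8.43 at 10 ppm and 8.28, 7.71, 7.49 and 7.51 at 15 ppm, where animal 375 overlapped the 10 ppm group. It was 1.60-fold lower (adjusted p = 0.0047). Atp6v1b1 and Atp6v1g3, subunits of the vacuolar proton pump of such cells, were 1.67-fold and 2.67-fold lower, Atp6v1g3 reading 9.56, 9.85, 10.25 and 9.43 against 8.43, 8.45, 8.69 and 7.83. Kcnj16, a potassium channel, fell by 0.87 on the log2 scale. Gnat3 and Stap1 are not members of the ion channel list and are named for the size of their fall. Gnat3, the taste G protein gustducin of solitary chemosensory cells, was 2.09-fold lower (8.01 ± 0.30 against 6.94 ± 0.41). Stap1, an adaptor of tyrosine kinases, read 8.93, 9.05, 9.19 and 8.83 against 8.55, 7.62, 7.51 and 7.62, with animal 375 nearest to the 10 ppm group.

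Stress and metabolic genes are given next, beside 12.6% of all genes called, 8.55% higher and 4.07% lower. Of 34 genes of the unfolded protein and integrated stress responses, 6 rose and 1 fell. The serine synthesis enzymes Psat1 (10.40, 10.50, 10.52 and 10.65 against 10.91, 11.16, 11.18 and 11.17) and Phgdh rose by 0.59 ± 0.08 and 0.81 ± 0.14, and Chac1, which degrades glutathione, by 0.79 ± 0.16. Nupr1, a stress-induced nuclear protein, fell by 0.78. Hspb1, a small heat shock protein, rose 1.97-fold and was 1 of 4 risen among 22 heat shock and metallothionein genes (1 called without animal 341, 348, 378 or 379, and 2 without 377).

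Of 31 glycolysis and hypoxia genes, 7 rose and 1 fell (5 in all without animal 348, 4 without animal 378 and 4 without animal 379). Slc16a1, a lactate and pyruvate transporter, read 8.42, 8.70, 8.13 and 8.54 against 9.07, 9.44, 9.57 and 9.69 and rose 2.00-fold. Of 33 ribosome biogenesis genes 6 rose, a count of 3 without animal 348, 15 without animal 375, 2 without animal 378 and 3 without animal 379. Of 54 respiratory chain subunits, 1 rose, 2 without animal 375 and 0 without animal 341, 346, 348, 377, 378 or 379.

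Calls among inflammatory genes are set beside 8.55% of all genes called higher and 4.07% called lower. Of 55 chemokine and cytokine genes 6 rose and 1 fell, 3 in all without animal 341, 2 without 348, 4 without 377 and 2 without 379. Ppbp, the platelet basic protein chemokine, read 6.40, 6.58, 5.56 and 6.66 against 7.17, 8.38, 8.26 and 8.47 and rose 3.40-fold (adjusted p = 3.6e-08), with no overlap. Il24, a cytokine of the interleukin-10 family, changed by 1.04 ± 0.17 at signals under 6. Interferon response genes were called in 1 of 44 cases, lower (Ifi27, a call lost without animal 341, 346, 348 or 378 at adjusted p of 0.0882, 0.0778, 0.0562 and 0.192). Isg15, a ubiquitin-like interferon target, changed by 0.64 ± 0.37 (adjusted p = 0.28) and Cxcl10, an interferon-induced chemokine, by 0.36 ± 0.54.

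Markers of leukocytes were called as follows: 2 of 18 neutrophil genes higher, 1 of 32 macrophage and dendritic cell genes higher, 1 of 40 T cell genes lower, 1 of 10 MHC class II genes lower, and of 21 genes of B cells, plasma cells and IgA transport 2 higher and 3 lower. With counts this small, single animals changed them: the neutrophil count was 0 without animal 341, 377 or 379, 1 without 348 and 4 without 349, the MHC class II count was 3 without animal 341 and 2 without 377, and the B cell count was 3 without animal 348 and 2 without 378. The single macrophage call, Gpnmb, was kept only without animal 375. The single T cell call, Cd3g of the T cell receptor complex, was lost without animal 341 (adjusted p = 0.0884), 346 (0.0648), 348 (0.0651), 349 (0.0715), 375 (0.0758) or 378 (0.139), and 2 genes of that list were called without animal 377. Cd74, the invariant chain of MHC class II, read 12.76, 13.14, 13.03 and 13.39 at 10 ppm and 12.59, 12.66, 12.40 and 12.52 at 15 ppm, 1.45-fold lower and without overlap (adjusted p = 0.0042). Ltb, which encodes lymphotoxin beta of lymphocytes, read 8.43, 8.64, 8.40 and 8.79 against 7.77, 7.83, 7.61 and 7.70 and was 1.79-fold lower. In the same B cell list Prdm1, a transcription factor of plasma cells and of differentiating epithelium, rose by 0.67 ± 0.19 (the call was lost without animal 348, adjusted p = 0.0608). Sdc1, a syndecan of plasma cells and epithelium, rose by 0.42 ± 0.14. The Sdc1 call was lost without animal 341 (adjusted p = 0.106), 346 (0.0681), 348 (0.140), 377 (0.0603), 378 (0.149) or 379 (0.0780). Cxcl13, a B cell chemokine, was not called (−1.30 ± 0.46, adjusted p = 0.052), although its value in each 15 ppm animal (7.54, 8.18, 8.84 and 8.79) lay below each 10 ppm value (8.91, 9.68, 10.17 and 9.80). The cytotoxic T cell gene Cd8a and the granzyme Gzmb were at signals under 6 in all 8 animals.

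Markers of other tissues were checked beside these results. Of 39 fibroblast, cartilage and bone genes, 19 endothelium and blood genes, 24 mast cell and eosinophil genes and 23 muscle and nerve genes, limma called 0, and 1, 0, 4 and 0 of them had an unadjusted p under 0.05 (1 fibroblast gene was called without animal 375, and the mean level of the fibroblast list was 8.34 ± 0.37 at 10 ppm and 8.23 ± 0.38 at 15 ppm). The list of olfactory neurons and sustentacular cells, whose lining had been discarded, varied widely between animals: 9.11, 9.97, 10.04 and 8.45 at 10 ppm and 10.27, 8.00, 8.35 and 9.53 at 15 ppm, with 1 of 22 genes called. The groups overlapped, and the part of this variation in the changes above was not tested.

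Genes of enamel, which none of these lists holds, had the largest fitted changes of all genes, and they are given here after their values were seen. Ambn, the gene of ameloblastin, read 10.90, 8.58, 8.85 and 8.45 at 10 ppm and 11.72, 14.29, 10.38 and 12.55 at 15 ppm. Animal 341 stood above animal 378, so the groups overlapped (change 3.04 ± 0.98, adjusted p = 0.030), and the call was lost without animal 346 (0.0757), 348 (0.0759), 349 (0.0734), 377 (0.141) or 379 (0.0737). Amelx, the gene of amelogenin, the main enamel matrix protein, read 11, 9.95, 9.28 and 9.15 against 13.23, 14.16, 11.93 and 13.50 on its brightest probe set, without overlap, but was not called (3.36 ± 1.22, adjusted p = 0.057). Its 3 other probe sets passed in a fit of each probe set, with changes of 6.15 (adjusted p = 0.016), 4.04 (0.032) and 4.20 (0.040). Dspp, the dentin gene, had a change of 0.29 ± 0.32. Ambn also varied within other groups at 13 weeks, with means of 10.01 ± 1.70 at 0 ppm and 11.64 ± 2.58 at 6 ppm (SD, n = 4). Msx2, a homeobox factor of teeth and skin, read 5.93, 5.95, 5.91 and 6.17 at 10 ppm and 7.11, 7.98, 6.93 and 7.62 at 15 ppm, where its animals stood in the same order as for Ambn (change 1.42 ± 0.26, adjusted p = 1.6e-04). Its other probe sets, both with means under 6, had changes of 0.48 and −0.09. The labels name no tooth tissue, and the part of the enamel genes' variation in the changes above was not tested.

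**Figure D4:**
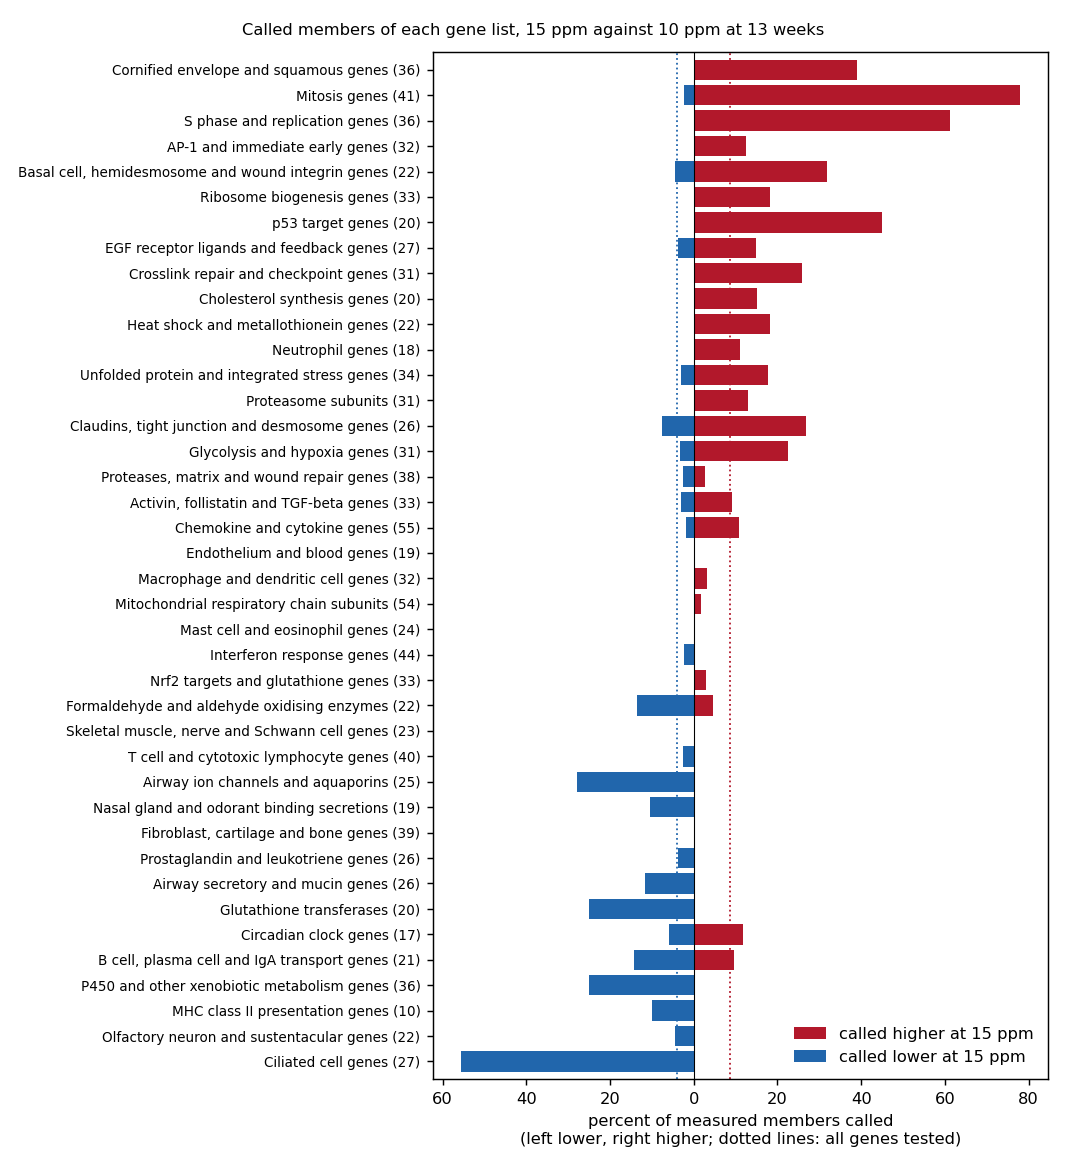
Percent of the measured members of each of 40 gene lists called higher (right) or lower (left) at 15 ppm, ordered by the median change of the list, with dotted lines at the shares of all genes tested (8.55% and 4.07%). Mitosis (32 of 41 higher), S phase (22 of 36 higher) and ciliated cell genes (15 of 27 lower) lie furthest out.

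The same step from 10 to 15 ppm was also taken at 5 days and at 4 weeks in other animals, which share no array with the 13 week groups. At 4 weeks 894 genes were called (6.29%), 726 higher (5.11%) and 168 lower (1.18%). The overlaps rest on this count, which was 161 without animal 331, 467 without animal 336, 345 without animal 368 and 372 without animal 369. Of the 1215 genes that rose at 13 weeks, 544 rose at 4 weeks too (44.8% of the former, 74.9% of the latter) and 0 fell. Of the 578 that fell, 95 fell at 4 weeks (16.4% and 56.5%) and 0 rose. The difference between both steps was called for 0 of 14217 genes by limma, with 502 genes (3.53%) at an unadjusted p under 0.05. Cdkn2a had a change of 3.59 at 4 weeks beside 2.21 at 13 weeks, the squamous list medians of 0.72 and 0.83, and the mitosis list medians of 0.59 and 0.57. The ciliated list had a median of −0.39 at 4 weeks beside −0.61 at 13 weeks.

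At 5 days 2158 genes were called (15.2%), 1021 higher (7.18%) and 1137 lower (8%). This balance depends on the scaling: 47.3% of the calls were higher with the deposited values and 72.4% under cyclic loess (1489 higher and 569 lower), and at a change of at least 1.5-fold 492 were higher and 103 lower. In all, 195 genes rose at both times (16.0% of those at 13 weeks and 19.1% of those at 5 days), while 68 rose at 13 weeks and fell at 5 days. The difference between the steps was called for 1496 genes (10.5%), 929 with the higher change at 13 weeks (6.53%) and 567 with the lower (3.99%). Of 26 claudin, tight junction and desmosome genes 10 had a higher change at 13 weeks and 0 a lower. Dsp, which links desmosomes to keratin, changed by 0.70 at 13 weeks and −0.31 at 5 days (difference 1.01, adjusted p = 0.0036). S100g, a calcium-binding protein, rose by 1.36 ± 0.29 at 13 weeks (10.10, 10.01, 10.28 and 10.80 against 11.21, 11.46, 12.27 and 11.70) and had a change of −0.66 at 5 days (difference 2.02, adjusted p = 6.1e-04). Of the 36 squamous genes 8 had a higher change at 13 weeks, and the list's median at 5 days was 0.02.

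The leukocyte and interferon genes showed the opposite difference. At 5 days 37 of 44 interferon genes, 29 of 55 chemokine and cytokine genes, 13 of 18 neutrophil genes, 22 of 32 macrophage and dendritic cell genes and 21 of 40 T cell genes rose in the step from 10 to 15 ppm. The difference between the steps was called, with the lower change at 13 weeks, for 27 of the 44 interferon, 17 of the 55 chemokine and cytokine, 10 of the 18 neutrophil, 18 of the 32 macrophage and dendritic cell and 23 of the 40 T cell genes. Mmp3, the matrix protease stromelysin, read 4.38, 4.99, 4.18 and 5.86 against 5.15, 4.93, 4.73 and 5.02 at 13 weeks and changed by 5.38 at 5 days. The macrophage chemokines Ccl2 and Ccl7 changed by 5.15 and 5.08 at 5 days. At 13 weeks Ccl7 had a change of 0.37 (adjusted p = 0.35) and Ccl2 one of 1.46 (adjusted p = 0.031), with 5.67, 6.25, 5.17 and 5.68 against 7.07, 7.99, 6.12 and 7.40. The latter call was lost without animal 341 (0.0729), 348 (0.11), 349 (0.0512), 377 (0.127) or 379 (0.0837).

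**Figure D5:**
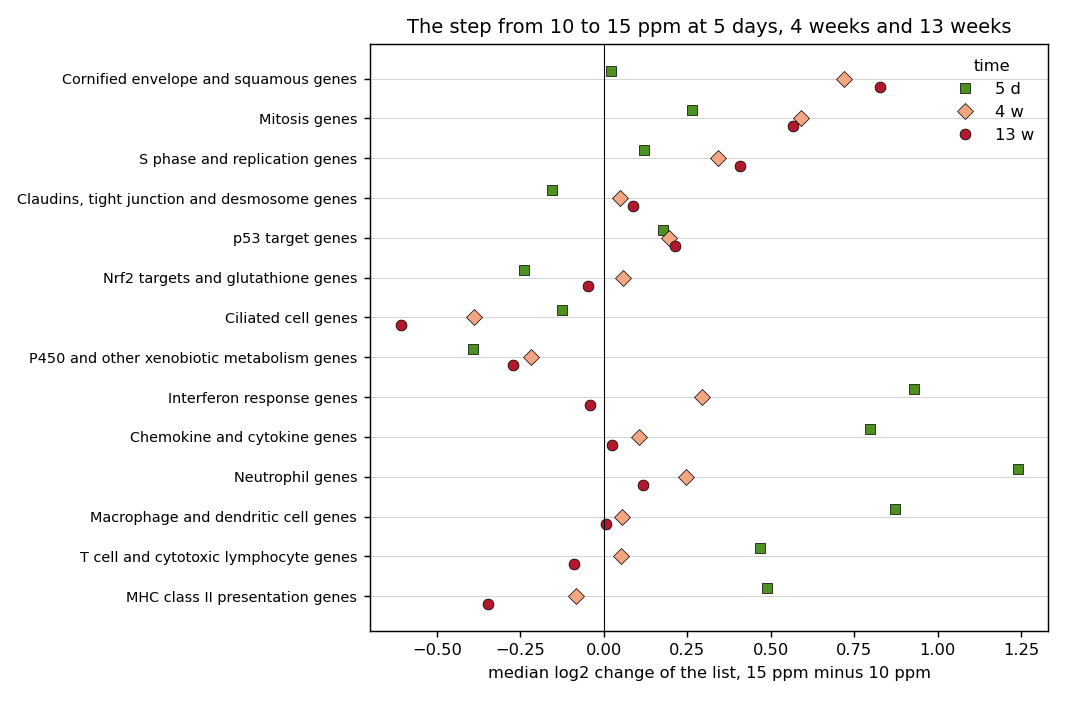
Median log2 change from 10 to 15 ppm of selected gene lists at 5 days (squares), 4 weeks (diamonds) and 13 weeks (circles). The squamous list has medians of 0.02, 0.72 and 0.83 in that order, the mitosis list 0.26, 0.59 and 0.57, and the leukocyte and interferon lists lie furthest right at 5 days.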

How the data were processed

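Expression was deposited as log2 signal, which the authors obtained by RMA (version not stated) after scanning with GCOS 1.0 according to the submitters' processing notes, and it was not rescaled here. Of 31099 probe sets 20832 named 1 gene symbol, 436 several and 9831 none, by the platform annotation given for this work. Each of 14217 genes was represented by its brightest probe set on average across the 68 arrays. RMA puts all arrays on 1 distribution, and it compresses changes at low signal, so no fold is given where the reference group's mean is under 6.

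Limma 3.58.1 in R 4.3.3 (lmFit, eBayes) fitted 1 mean per group over all 17 groups, with 51 residual and 2.85 prior degrees of freedom, and each contrast had its own Benjamini-Hochberg adjustment. The dose step at 13 weeks was set against those at 5 days and 4 weeks by interaction contrasts. The fit was tested on simulated data before use. Replicates are separate animals, and 4 per group limit the precision (median SE of a change 0.10). For 4 week samples the treatment field of most labels gives 5 days; the time tag, title and description were followed.

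The text names part of the genes that a rule picked. Among called genes whose groups do not overlap and whose higher mean is at least 6, the rule took the 25 largest changes in each direction. It also took up to 5 called members of each gene list by adjusted p, for each interaction the 8 largest called differences per sign, and fixed single genes. Genes outside the rule are stated as chosen after their values were seen. The comparison, the 40 gene lists and the genes were chosen with earlier results of these data known. Promoter windows are RefSeq's (GRCr8), the first listed start of each gene. Probe sets with no symbol or several were left out, since they cannot be assigned to a gene.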

Additional observations from a re-analysis of the deposited data

Results flagged for a closer look

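In sets of 4 arrays the highest or lowest value was compared with the rest by Dixon's gap ratio at its 95% critical value, for the named genes and for the mean levels of the gene lists. Of 504 sets tested, 22 (4.37%) stood out, beside a nominal 1 in 20 at this critical value. Of the 22, 8 were for animal 349 and 9 for animal 375. The sets come from the same arrays and are not independent, so whether chance gives these flags was not tested. At 10 ppm, animal 349 was high for Klk10 (7.97), Rbp7 (6.27), Tlcd3a (10.78), Asprv1 (9.56), Msx2 (6.17), Cxcr5 (8.98), Dhcr7 (9.68) and the mean of the squamous list (10.71). Animal 346 was low for Cp (9.77), and animal 341 was high for Ambn (10.9) and low for the mean of the S phase list (8.31). At 15 ppm, animal 375 was low for Ppbp (7.17), Dsg1 (8.00), Aloxe3 (7.40), Rad54l (5.33), Psat1 (10.91), Areg (10.16) and Cdkn1a (11.09) and high for Stap1 (8.55) and Muc5b (11.98), and animal 378 was low for Pole2 (7.67) and high for Topbp1 (9.17).

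The step from 10 to 15 ppm differed between 13 weeks and 5 days by an interaction test in limma for 1496 genes. Among the largest positive differences on the log2 scale (13 weeks minus 5 days) were Gjb6 at 2.16, S100g at 2.02, Tmprss11d at 2.01, Cdkn2a at 1.89, Endou at 1.86, Tchh at 1.86, Krt13 at 1.85 and Foxe1 at 1.83. The largest negative ones were Mmp3 at −5.28, Ccl7 at −4.71, Fcnb at −3.71, Ccl2 at −3.69, Vcan at −3.44, Cxcl11 at −3.34, LOC103691468 at −3.17 and Ccr1 at −3.07.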

How the results depend on the processing

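No paired analysis was possible because animal numbers are unique and the groups compared share none. In limma with other settings the number of genes called between 10 and 15 ppm (1793) became 1047 with the contrast's groups fitted alone, 3229 with array weights and 438 at a change of at least 1.5-fold, and ran from 833 (without animal 378) to 2127 (without animal 375) when 1 animal was left out. The difference from the 5 day step (1496 genes) became 836 with the contrast's groups alone and 722 at a change of at least 1.5-fold, and ran from 1025 to 1622 with 1 animal left out. Under cyclic loess 1136 genes were called for that difference, and the share with the higher change at 13 weeks was 40.6% beside 62.1%. The difference from the 4 week step (0 genes) became 1 under cyclic loess, 1 with a filter on low signal, 1 with array weights and 85 with p adjusted over all contrasts, and ran from 0 to 3 with 1 animal left out. Of 182 named genes that were called, 105 stayed past the threshold in every alternative except the 1.5-fold requirement, which is among the 21 alternatives. Of the 182, 1 changed sign: Dst, at a change of 0.086 with the mean of its probe sets. The step at 5 days alone had 72.4% of its calls higher under cyclic loess beside 47.3%. The cause of these shifts was not tested. Array weights were lowest for animal 375 (0.51) among the 8 animals. The 4 animals per group and signals near background (57 called genes had both means under 6) limit what can be told.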

Other observations

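The list counts given here stand beside 12.6% of all genes called, 8.55% higher and 4.07% lower. Of 17 circadian clock genes 2 rose and 1 fell. Clock, which encodes a core activator, read 10.20, 10.07, 10.16 and 10.39 against 10.45, 10.57, 10.78 and 10.54 (0.38 ± 0.08, adjusted p = 0.0016 in limma). Its dimmer probe sets had changes of 0.54, 0.23 and 0.13 (adjusted p = 0.0067, 0.14 and 0.66 in a limma fit of each probe set). The list count was 1 without animal 341, 348, 377 or 378 and 6 without animal 375. Of 20 cholesterol synthesis genes 3 rose (6 without animal 375), among them Dhcr7 (0.36 ± 0.09) and Nsdhl (0.46 ± 0.12). Of 31 proteasome subunits 4 rose, with 0 to 2 called without 1 of animals 341, 348, 349, 377, 378 or 379.

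Foxe1, a forkhead factor of squamous epithelium and thyroid, read 7.82, 7.55, 7.77 and 8.45 at 10 ppm against 9.24, 9.21, 9.73 and 8.98 at 15 ppm. Moxd1, a monooxygenase-like protein, rose by 1.53 ± 0.32. Msx2 and Moxd1 had changes of −0.45 and −0.53 in the step at 4 weeks.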
